A study of Mus musculus with 6 samples.

Results

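The genes described are 40 regulators of apoptosis and targets of the tumour suppressor p53, measured in mouse islet cells with and without T lymphocyte exosomes. They were chosen by name, with earlier results of these data known. A probe belonged to a gene when its RefSeq accession mapped to the gene's symbol, and the probe with the highest mean signal over the 6 arrays stood for the gene. All 40 genes had a probe, and all 40 were among the 25788 genes tested. Each of their probes was well above background on all 6 arrays, so no gene entered through 1 group alone.

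Islets of male C57Bl/6N mice were dispersed and the cells kept in serum-containing RPMI medium for 72 h. In the control group (3 arrays) nothing else was added. In the exoNOD group (3 arrays) the medium held 50 µg/ml of exosomes, the small membrane vesicles that cells release. These came from CD4+CD25- T lymphocytes that had been cultured from NOD mice, which develop autoimmune diabetes spontaneously. Each of the 3 experiments had its own islets and its own exosomes, and no group with exosomes of another source is analysed here. Total RNA was read with the dye Cy3 on Agilent arrays of 1 colour. A level is the log2 signal of a probe minus the log2 of its array's 75th percentile, and changes are exoNOD minus control in log2 units with n = 3 arrays per group. A level compares arrays for 1 probe and does not rank 1 gene against another.

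Apoptosis runs along an intrinsic and an extrinsic route. In the intrinsic route BH3-only proteins sense stress, neutralise the anti-apoptotic BCL2 proteins and let Bax and Bak open the outer mitochondrial membrane, after which cytochrome c and Apaf1 activate caspase 9. In the extrinsic route ligands such as Fas ligand engage death receptors, which activate caspase 8, or, when caspase 8 is held back, Ripk3 and its substrate Mlkl, which rupture the cell in necroptosis. The transcription factor p53 feeds the intrinsic route through Bbc3 (PUMA), Pmaip1 (NOXA) and Bax and also drives genes of cell cycle arrest such as Cdkn1a. Beta cells of the islet can die by either route when T lymphocytes and their cytokines attack the islet in autoimmune diabetes.

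Every array held 43020 spots, of which between 78.1% and 81.8% were well above background and 0 were saturated. The 75th percentile of signal lay between 812 and 890 on all arrays, while the median signal was 112 to 117 on control and 121 to 140.5 on exoNOD arrays. Markers of islet endocrine cells were all above background. By the scan times in the file headers, the controls and exoNOD 1 were scanned together, and exoNOD 2 and exoNOD 3 in a second scan that held no control, so scan and group cannot be told apart for those arrays. Arrays of equal replicate number deviated together from their group means: over all genes the correlations were 0.37, 0.28 and 0.48, and over the 40 genes 0.41, 0.64 and 0.61 (genes are not independent replicates). Each difference is therefore given from limma without and with a block for the replicate number.

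Setting exoNOD against control cells addresses which death and survival genes of islet cells differ after exposure to the exosomes. Without the block, 0 of the 40 genes passed a limma adjusted p of 0.05, and 27 of all tested genes did (0.105%). At an unadjusted p under 0.05 there were 4 of the 40 (10%), against 16.6% of all genes. With the replicate block, 6 of the 40 passed (15%), against 2249 of all genes (8.72%). Fasl, Tnfrsf10b, Ripk3 and Mlkl rose, a share of 10% where 6.89% of all genes rose. Bbc3 and Sesn1 fell, a share of 5% where 1.83% of all genes fell. The 4 that rose all belong to the death receptor and necroptosis group. In a fit with scan as a block, which sets exoNOD 1 against the controls of its scan, 0 of the 40 passed and 0 of all genes, with 1 and 931 at an unadjusted p under 0.05.

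The members as a whole did not lean one way. Of the 40, 19 had a higher and 21 a lower mean in exoNOD cells, with a median change of −0.02, while 55.4% of all tested genes were higher, with a median of 0.04. In 10 of the 40 the change was over 0.25 in size (35.4% of all genes). A change of the same sign in all 3 pairs was seen in 21 of the 40 (51.2% of all genes), with 10 higher in all pairs (29.0% of all genes) and 11 lower (22.1%). All exoNOD arrays lay above all controls for Fasl and Tnfrsf10b (5% of the genes, against 14.6% of all genes). All exoNOD arrays lay below all controls for Bad, Cdkn1a and Sesn1 (7.5%, against 7.78%). Scaling each array by its median in place of its 75th percentile moved the median change of all genes to −0.11, with 37.95% of them higher. Of the 40, 10 were then higher, with a median of −0.16. After normexp background correction the median of all genes was 0.35, with 68.01% of them higher, and 21 of the 40 were higher, with a median of 0.02.

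**Figure D1:**
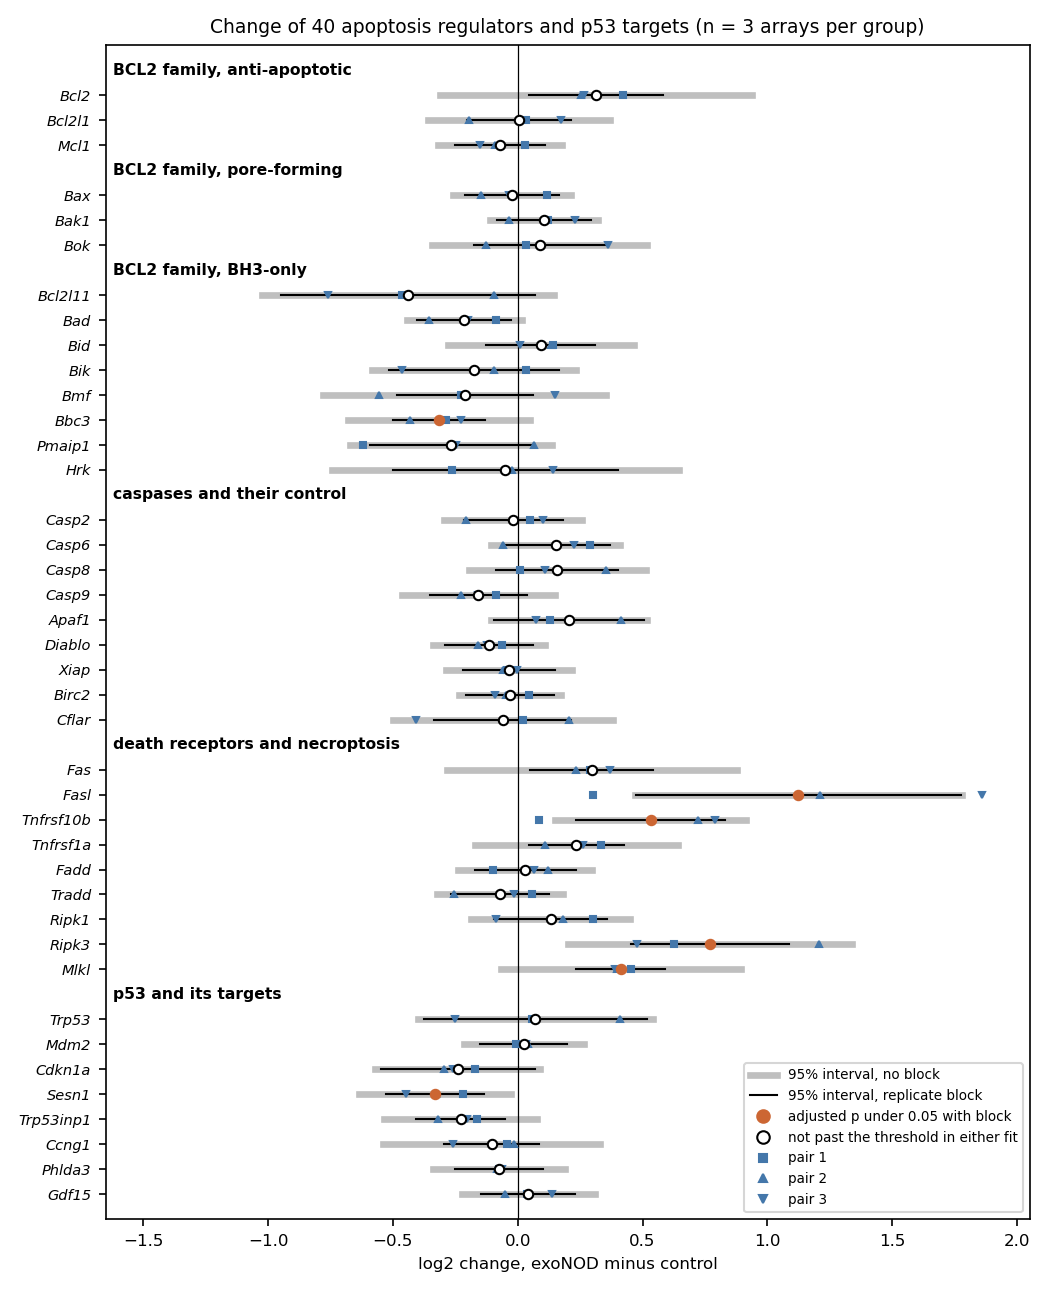
Log2 change (exoNOD minus control, horizontal axis) of each of the 40 genes, grouped by role, with 3 arrays per group. Large circles are the mean change and small symbols the pairs of equal replicate number. Grey bars are the 95% interval without and black lines the interval with the replicate block. The 6 filled circles passed an adjusted p of 0.05 with the block. Of the 9 death receptor and necroptosis genes 8 lie above 0, where 55.4% of all genes do.

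Among death receptors and the necroptosis machinery, 8 of 9 genes had a higher mean in exoNOD cells, where 55.4% of all genes did. With the replicate block 4 of 9 rose, where 6.89% of all genes rose. The median change of the 9 genes was 0.30 against 0.04 for all genes. The median was 0.30, 0.23 and 0.37 in pairs 1, 2 and 3. After scaling by the median 6 of 9 were higher, where 37.95% of all genes were (median 0.16 against −0.11 for all genes). In the authors' values and after quantile normalization 8 of 9 were higher, where 45.61% and 45.72% of all genes were. The median of the 9 was 0.24 in both, against −0.03 and −0.02. After normexp 8 of 9 were higher as well, where 68.01% of all genes were, but the median of 0.26 of the 9 lay below the 0.35 of all genes. A change in the number of cells of a type and a change in RNA per cell cannot be told apart in such bulk samples.

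Fasl encodes Fas ligand, which activated T lymphocytes and natural killer cells use to trigger Fas on target cells. Its level was −5.57, −5.89 and −6.10 on control arrays 1, 2 and 3 and −5.27, −4.68 and −4.24 on the exoNOD arrays. Every exoNOD array was above every control, with exoNOD 1 nearest to the controls. The exoNOD mean was 2.18-fold higher (1.12 ± 0.29 SE on the log2 scale, 95% interval 0.47 to 1.78, limma adjusted p = 0.159, 0.0431 with the replicate block). The probe was dim. The lowest signal that any array called well above background lay between −6.50 and −6.20. The change was 0.30, 1.21 and 1.86 in pairs 1, 2 and 3. Against the control mean it was 0.58 for exoNOD 1 and 1.40 for the mean of the arrays of the second scan.

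Tnfrsf10b encodes the mouse receptor for the death ligand TRAIL. It had levels of −0.54, −0.69 and −0.59 on the controls and −0.46, 0.03 and 0.20 on the exoNOD arrays. The groups did not overlap, but exoNOD 1 lay only just above the highest control, and the spread of the exoNOD arrays (SD 0.34) exceeded that of the controls (SD 0.08). The mean was 1.45-fold higher (0.53 ± 0.17, adjusted p = 0.223, 0.0382 with the block). Against the control mean the change was 0.15 for exoNOD 1 and 0.72 for exoNOD 2 and exoNOD 3. For Fasl and Tnfrsf10b the call without the block appeared once exoNOD 1 was left out (adjusted p = 0.0309 and 0.0233). In that fit 2 of the 40 genes and 1272 of all 25788 passed, against 27 of all genes with every array. Both exoNOD arrays left were from the second scan, which held no control, so scan and group could not be told apart in it.

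Ripk3 encodes the kinase that commits a cell to necroptosis. Its level was −1.98, −2.37 and −1.34 on the controls and −1.36, −1.16 and −0.86 on the exoNOD arrays, so that control 3 lay just above exoNOD 1 while each exoNOD array exceeded the control of its own number. The mean was 1.71-fold higher (0.77 ± 0.25, adjusted p = 0.231, 0.0113 with the block), with pair changes of 0.63, 1.20 and 0.48. Mlkl encodes the membrane-rupturing substrate of Ripk3. It stood at 0.35, 0.43 and 1.00 on the controls and 0.81, 0.83 and 1.39 on the exoNOD arrays. Control 3 was above exoNOD 1 and exoNOD 2, and the groups overlapped. The 3 pairs gave near equal changes of 0.45, 0.40 and 0.39 (0.41 ± 0.21, adjusted p = 0.354, 0.0137 with the block). For exoNOD 1 against the control mean the changes were 0.54 for Ripk3 and 0.21 for Mlkl.

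The calls of Ripk3 and Mlkl with the block were also made after quantile normalization (adjusted p = 0.0323 and 0.0221) and in the authors' own values (0.0338 and 0.0230), where those of Fasl (0.122 and 0.123) and Tnfrsf10b (0.0784 and 0.0802) were lost. None of the 4 passed with the block after normexp background correction (adjusted p from 0.541 to 0.732) or without pair 2 (from 0.0730 to 0.266). Without pair 3 Fasl (0.189) and Tnfrsf10b (0.0641) were lost, and with no filter on dim probes the same genes (0.0980 and 0.0857). With scaling by the median Mlkl was lost (0.27, adjusted p = 0.158).

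**Figure D2:**
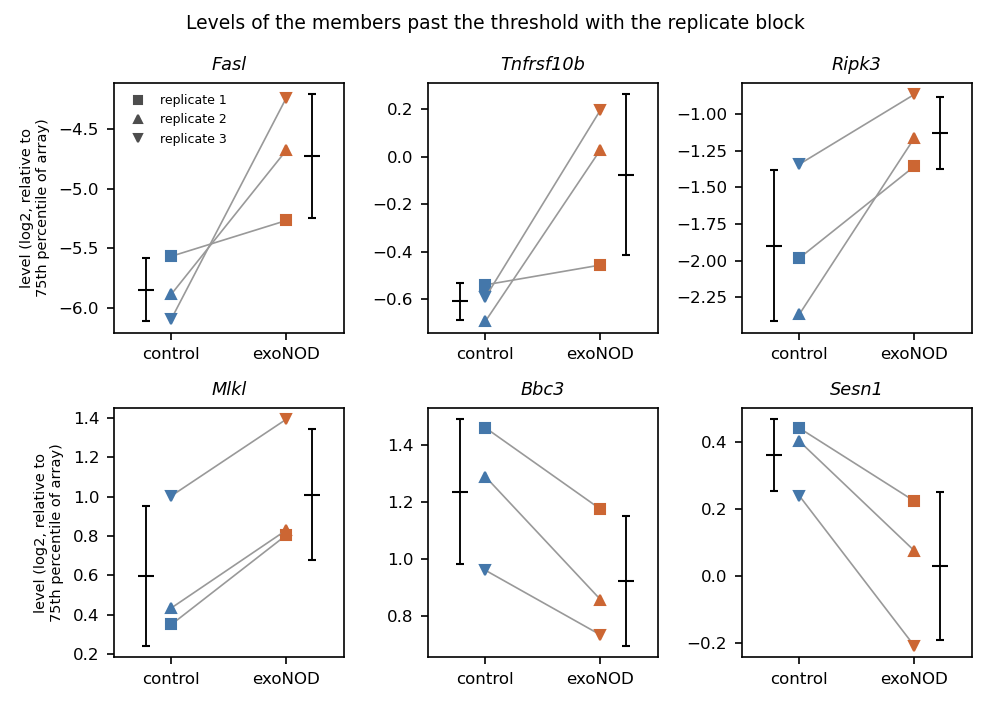
Log2 level relative to the 75th percentile of the array (vertical axis, own scale in each panel) for the 6 genes past the threshold with the replicate block; symbols are single arrays, lines join arrays of equal replicate number and bars show mean ± SD, n = 3. Only Fasl and Tnfrsf10b (above) and Sesn1 (below) have exoNOD arrays outside the control range on every array.

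The other members of the group did not pass in either fit. Fas, the receptor of Fas ligand, had a change of 0.30 ± 0.25 (adjusted p = 0.569, 0.118 with the block), positive in all 3 pairs. Tnfrsf1a, the main TNF receptor, had 0.24 ± 0.18, and its second probe −0.02. The adaptor and kinase genes Ripk1 (0.13), Fadd (0.03) and Tradd (−0.07) had block-adjusted p values from 0.420 to 0.854.

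The windows of 250 bases upstream of the annotated start are shown for Fasl, Ripk3 and Mlkl because these are the raised genes with an entry in the RefSeq promoter table (build GRCm38.p6). Capitals mark a match to the p53 half-site. No match to the interferon-stimulated response element (TTTC, 2 bases of any kind and TTTC, searched on both strands) was in the window of any of the 35 members in the table, and 3.46% of 27025 genes held one. The gamma-activated site (TTCNNNGAA) was matched in Fas, Tnfrsf1a and Ripk1, and in 8.13% of all genes. A match describes letters and not a bound site, and a window without one says nothing of the factor.
Fasl (chr1:161788496-161788745, minus strand): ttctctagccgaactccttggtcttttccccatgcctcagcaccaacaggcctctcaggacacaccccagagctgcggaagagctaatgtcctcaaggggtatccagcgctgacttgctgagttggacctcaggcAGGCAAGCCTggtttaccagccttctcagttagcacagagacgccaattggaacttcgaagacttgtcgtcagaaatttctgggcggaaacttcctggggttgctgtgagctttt
Ripk3 (chr14:55788858-55789107, minus strand): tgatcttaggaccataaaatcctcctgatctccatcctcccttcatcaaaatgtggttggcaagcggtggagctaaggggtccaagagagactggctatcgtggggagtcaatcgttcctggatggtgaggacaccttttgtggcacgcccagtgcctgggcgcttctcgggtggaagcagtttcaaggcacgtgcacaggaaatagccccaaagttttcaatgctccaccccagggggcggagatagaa
Mlkl (chr8:111338206-111338455, minus strand): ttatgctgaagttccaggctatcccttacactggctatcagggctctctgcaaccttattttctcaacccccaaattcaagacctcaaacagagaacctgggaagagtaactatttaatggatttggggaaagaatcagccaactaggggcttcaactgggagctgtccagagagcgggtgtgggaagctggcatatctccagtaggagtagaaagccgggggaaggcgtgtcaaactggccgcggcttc

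Markers of other cells also differed between the groups. Of the 8 T lymphocyte markers, 5 were tested, and 4 of these 5 were higher in exoNOD cells, as Fasl was, with a median change of 0.32. Lck, a T lymphocyte kinase, rose with the block (0.63, adjusted p = 0.00348), Cd2 (0.43), Cd4 (0.32) and Cd8a (0.22) did not pass, and Cd3e had −0.18. Cd3d and Cd3g were not well above background on all arrays of either group, and Trac had no matched probe. In units of the array's 75th percentile their summed signal was 14.0 to 18.9 on control and 14.0 to 18.4 on exoNOD arrays, of which the Cd3e probe made up 58.1% to 76.0%. Without Cd3e the sum was 3.99 to 4.53 on control and 4.54 to 6.38 on exoNOD arrays.

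All 5 B lymphocyte markers were higher, from 0.01 for Pax5 to 1.73 for Ms4a1, and 2 of 5 rose with the block. Ms4a1 was well above background on 0 control and 3 exoNOD arrays, so it entered only through the group where it was high. Its place in these counts is thus not independent of its rise. The sums were 0.260 to 0.326 on control and 0.381 to 0.460 on exoNOD arrays. For macrophages and dendritic cells 5 of 6 were lower and Itgam (−0.50) and Adgre1 (−0.87) fell with the block, but the probes disagreed. The sum of 21.3 to 22.3 on control and 16.1 to 16.4 on exoNOD arrays was 73.8% to 85.3% the brightest Itgam probe, and without it the sums were 3.14 to 4.21 and 3.13 to 4.27. The other Itgam probes gave 0.16 and 0.50, a second Adgre1 probe −0.10 and the further Csf1r probes 0.48 and −0.10.

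Among 6 endothelial markers Plvap rose (0.43) and Cdh5 fell (−0.80) with the block. Their sum was 6.71 to 7.83 and 8.29 to 9.002, and without Plvap 2.36 to 2.91 and 2.31 to 2.68, while second probes gave −0.35 for Plvap and −0.97 for Kdr. Of 3 mast cell markers above background Tpsb2 rose (1.30, second probe 0.34), with Mcpt4 at 0.37, Kit at −0.44 and Cpa3 and Fcer1a not well above background. Their sum was 0.435 to 0.5004 and 0.836 to 0.997, and without Tpsb2 0.141 to 0.193 and 0.113 to 0.178. In the duct list Cftr (0.82) and Spp1 (1.56) rose with the block, while Sox9 had 0.29, Krt7 −0.04 and Krt19 −0.17. The duct sums were 4.53 to 6.73 and 7.03 to 9.31, and without Cftr they overlapped, at 2.94 to 4.76 and 3.94 to 5.77. Beta cell markers summed to 1086 to 1150 and 1058 to 1076, and without Ins2 the sums overlapped, at 684.9 to 724.9 and 662.5 to 685.5. Of the beta cell markers 5 of 9 fell with the block, where 1.83% of all genes did. Of 7 fibroblast, stellate cell and pericyte markers 4 were higher and 3 lower, 1 rose with the block, and Pdgfra had the largest change (1.225). Of 6 acinar markers 4 were higher and 2 lower, 1 rose with the block, and Cpa1 had the largest change (0.64). Their sums overlapped, at 52.65 to 76.56 and 62.12 to 87.26 for the first list and 0.4535 to 0.6477 and 0.4499 to 0.7276 for the second. The part of these shifts in the changes of the death receptor, BH3-only and p53 genes was not tested.

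The BH3-only genes leaned the other way. A lower mean in exoNOD cells was found for 7 of 8, with a median change of −0.21, where 55.4% of all genes were higher (median 0.04). With the block 1 of 8 fell (1.83% of all genes). After quantile normalization and in the authors' own values 7 of 8 were lower, where 45.72% and 45.61% of all genes were higher. After scaling by the median 8 of 8 were lower, but only 37.95% of all genes were then higher (median −0.11). After normexp, which also started from the median spot signal, 5 of 8 were higher (68.01% of all genes), with a median of 0.24 against 0.35 for all genes. In pairs 1, 2 and 3 the median was −0.25, −0.10 and −0.21.

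Bbc3 encodes PUMA, a p53-induced BH3-only protein that binds all anti-apoptotic BCL2 proteins. Its level was 1.46, 1.29 and 0.96 on the controls and 1.18, 0.86 and 0.73 on the exoNOD arrays. Control 3 lay below exoNOD 1, so the groups overlapped, yet each exoNOD array was below the control of its number. The control mean was 1.24-fold higher (change of −0.32 ± 0.16, adjusted p = 0.353, 0.0451 with the block). The change against the control mean was −0.06 for exoNOD 1 and −0.44 for exoNOD 2 and exoNOD 3. With the block the call was lost after quantile normalization (adjusted p = 0.0636), in the authors' values (0.0647), after normexp (0.368), with no filter (0.0728), and without pair 2 (0.173) or pair 3 (0.0739).

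Bad encodes the BH3-only protein that growth factor signalling keeps phosphorylated and inactive. It was tight on the controls, at 1.48, 1.49 and 1.48, and lay at 1.40, 1.14 and 1.28 on the exoNOD arrays, all of them lower. The change of −0.21 ± 0.10 did not pass (adjusted p = 0.321, 0.137 with the block), and a second Bad probe changed by only −0.02. Bcl2l11, which encodes BIM, was dim at −5.06, −4.99 and −5.24 on the controls and −5.53, −5.09 and −6.00 on the exoNOD arrays (−0.44 ± 0.26, adjusted p = 0.411, 0.238 with the block). Its 3 pairs were all lower, but exoNOD 2 lay within the control range.

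The other BH3-only genes gave no consistent pair direction except Bid. Pmaip1, which encodes the p53 target NOXA, stood at −2.10, −2.10 and −2.13 on the controls and −2.72, −2.03 and −2.37 on the exoNOD arrays (−0.27 ± 0.18, adjusted p = 0.465, 0.260 with the block). Its exoNOD 1 was the lowest array and exoNOD 2 lay above all controls. It passed with the block and scaling by the median, alone of the settings run (−0.41, adjusted p = 0.0207). Changes of Bik (−0.18), Bmf (−0.21), Hrk (−0.05) and Bid (0.09), the BH3-only protein that caspase 8 cleaves to link both routes, were within about 1 standard error.

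Anti-apoptotic and pore-forming genes did not pass in either fit. Bcl2, the founding survival gene of the family, had levels of −3.07, −2.35 and −2.14 on the controls and −2.65, −2.10 and −1.88 on the exoNOD arrays. Each exoNOD array was above its own control, and the spread between preparations exceeded the change (0.31 ± 0.27, adjusted p = 0.576, 0.126 with the block). Bcl2l1, which encodes BCL-XL, had levels of 3.48, 3.50 and 3.76 on the controls and 3.52, 3.31 and 3.93 on the exoNOD arrays. The pairs pointed both ways, replicate 3 was the highest in both groups, and the 95% interval of the change ran from −0.36 to 0.37. A second Bcl2l1 probe gave −0.10. Mcl1, which encodes a short-lived survival protein, had 2.92, 2.89 and 3.16 on the controls and 2.95, 2.80 and 3.01 on the exoNOD arrays (−0.07 ± 0.11, adjusted p = 0.763). The groups overlapped, and a second Mcl1 probe gave 0.18.

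The pore formers had small changes. Bax had levels of 2.51, 2.72 and 2.77 on the controls and 2.63, 2.57 and 2.73 on the exoNOD arrays, all within the control range (−0.02, 95% interval −0.26 to 0.21). Bak1 had 1.61, 1.64 and 1.55 on the controls and 1.73, 1.61 and 1.78 on the exoNOD arrays, of which exoNOD 1 and exoNOD 3 lay above the controls (0.11 ± 0.09). Bok encodes a relative of both that acts partly on its own. It had −1.01, −1.33 and −1.64 on the controls and −0.97, −1.46 and −1.28 on the exoNOD arrays, spread alike (0.09 ± 0.19). Their block-adjusted p values ran from 0.440 to 0.881. With scaling by the median 0 of these 3 genes were higher (37.95% of all genes), against 2 of 3 as reported (55.4% of all genes).

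Among caspases and the proteins that control them 0 of 9 passed in either fit. Of these 9, 3 were higher and 6 lower, where 55.4% of all genes were higher. The changes lay between −0.16 and 0.21 with a median of −0.03. Apaf1, the scaffold of the apoptosome, had the largest, at −2.86, −2.93 and −2.72 on the controls and −2.73, −2.51 and −2.65 on the exoNOD arrays. Its pairs were all higher, and exoNOD 1 lay below control 3 (0.21 ± 0.14, adjusted p = 0.464, 0.345 with the block). Casp9, the caspase that Apaf1 activates, had levels of 0.01, 0.05 and −0.26 on the controls and −0.08, −0.17 and −0.41 on the exoNOD arrays (−0.16 ± 0.13, 0.567, 0.267 with the block). All 3 Casp9 pairs were lower, opposite in sign to Apaf1.

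Casp6, an executioner caspase, had levels of −0.20, 0.11 and −0.12 on the controls and 0.09, 0.05 and 0.11 on the exoNOD arrays, which lay at the upper end of the control range (0.15 ± 0.11). Casp8, the initiator caspase of the extrinsic route, had 0.16 ± 0.16 and was higher in all 3 pairs, with 0.35 in pair 2 against 0.01 in pair 1. Its decoy Cflar had −0.06 ± 0.19, and the further Cflar probes gave 0.05 and −0.08. Changes were −0.02 for Casp2, −0.12 for Diablo (an antagonist of the inhibitor proteins, second probe −0.07), −0.04 for the caspase inhibitor Xiap and −0.03 for the ubiquitin ligase gene Birc2. Over the 9 genes the block-adjusted p ran from 0.267 to 0.908.

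For p53 itself and its targets outside the BCL2 family, 1 of 8 fell with the block, where 1.83% of all genes fell. Of the 8 genes, 3 were higher and 5 lower, where 55.4% of all genes were higher. The median change was −0.09, against 0.04 for all genes. After scaling by the median 8 of 8 were lower, but only 37.95% of all genes were then higher. In the authors' values and after quantile normalization or normexp 6 of 8 were lower, where 45.61%, 45.72% and 68.01% of all genes were higher. Sesn1 encodes sestrin 1, which restrains the growth kinase complex mTORC1 under stress. Its level was 0.44, 0.40 and 0.24 on the controls and 0.22, 0.08 and −0.21 on the exoNOD arrays. All exoNOD arrays were lower than all controls, by little for exoNOD 1. The control mean was 1.26-fold higher (change of −0.33 ± 0.13, adjusted p = 0.277, 0.0464 with the block). Against the control mean exoNOD 1 differed by −0.14 and exoNOD 2 and exoNOD 3 by −0.43. The call with the block was lost after quantile normalization (0.0675), in the authors' values (0.0691), after normexp (0.732), with no filter (0.0751) and without pair 2 (0.166) or pair 3 (0.238).

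Cdkn1a encodes the cell cycle inhibitor p21, the classical p53 target. Its level was −3.18, −2.91 and −3.11 on the controls and −3.35, −3.21 and −3.37 on the exoNOD arrays, again without overlap. The change was −0.24 ± 0.15 (adjusted p = 0.423, 0.283 with the block), and the second Cdkn1a probe gave −0.12. Trp53inp1, whose product promotes p53-dependent apoptosis, had levels of 1.52, 1.92 and 1.57 on the controls and 1.35, 1.60 and 1.36 on the exoNOD arrays. Each pair was lower while exoNOD 2 exceeded control 1 and control 3 (−0.23 ± 0.13, adjusted p = 0.414, 0.103 with the block). Its second probe pointed the other way (0.17).

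The p53 gene and its feedback inhibitor did not pass in either fit. Trp53 encodes p53, whose amount is set largely by protein stability. Its probe was dim and variable, with a mean of −4.60 ± 0.18 on the controls and −4.53 ± 0.29 on the exoNOD arrays and pair changes of 0.06, 0.41 and −0.25. Mdm2, the ubiquitin ligase that p53 induces and that degrades p53, had 2.63 ± 0.11 and 2.65 ± 0.12. The interval of its change (0.02 ± 0.11) ran from −0.22 to 0.26. Ccng1 (cyclin G1, −0.10) and Phlda3 (an inhibitor of Akt signalling, −0.07) were lower in all 3 pairs, and the stress cytokine gene Gdf15 had 0.04. None of these 5 had an adjusted p under 0.444 in the fit with the block.

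**Figure D3:**
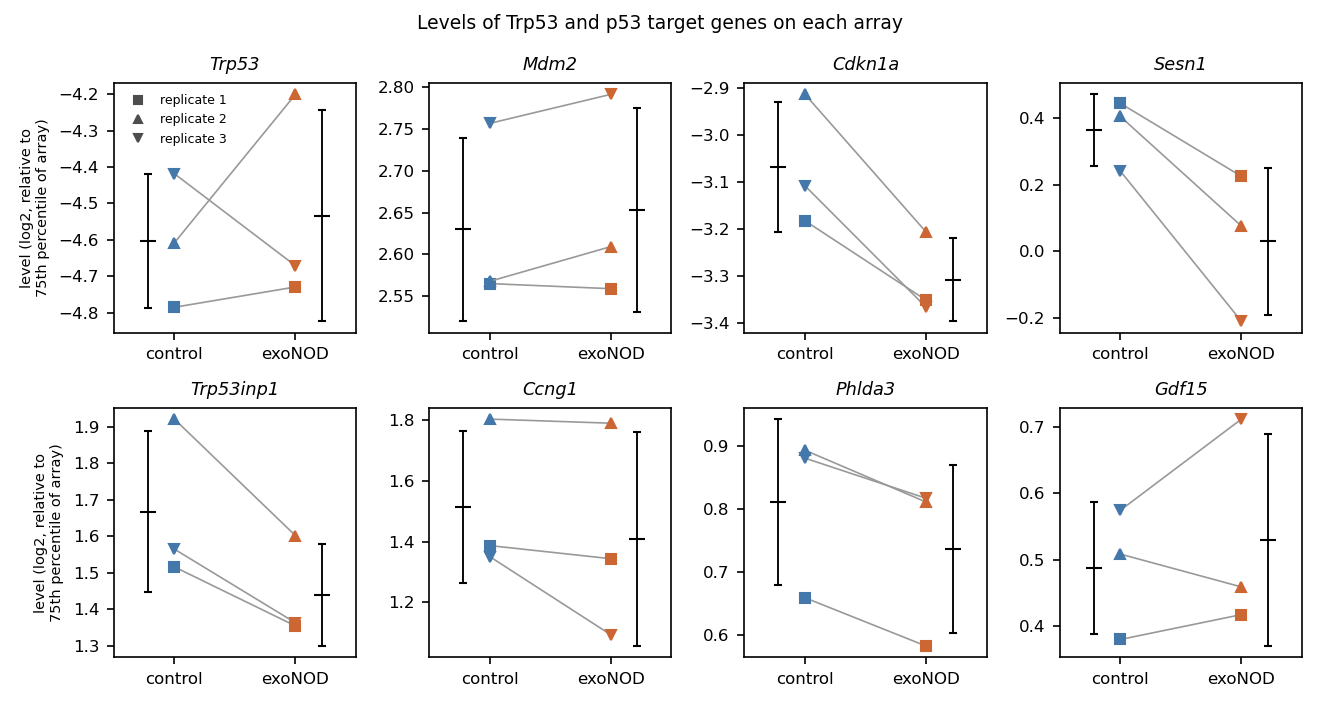
Log2 level relative to the 75th percentile of the array (vertical axis, own scale in each panel) of Trp53 and 7 p53 target genes on each array; symbols are arrays, lines join equal replicate numbers and bars show mean ± SD, n = 3. Cdkn1a and Sesn1 are the panels in which all exoNOD arrays lie below all controls, while Mdm2 changes by 0.02.

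Upstream windows are shown for Bbc3 and for the p53 targets in which the p53 half-site was matched on either strand. The match was present in Bax, Bmf, Fasl, Trp53, Mdm2, Cdkn1a, Sesn1 and Ccng1, 8 of the 35 members in the RefSeq table, and in 8.20% of all 27025 genes. Cdkn1a held 2 matches in the window shown, Mdm2, Ccng1 and Sesn1 1 each, and Phlda3 and Gdf15 0. In Bbc3 the capitals mark 2 overlapping matches to the NF-kB site, which 8.23% of all genes and, of the members, also Bcl2l1 held. In the other windows they mark the p53 half-site. A further window of Sesn1 and a further window of Cdkn1a held no match. Of the genes with a p53 half-site match, Sesn1 and Fasl passed with the block, in opposite directions. Bbc3, with the NF-kB matches, fell with the block.
Bbc3 (chr7:16309333-16309582, plus strand): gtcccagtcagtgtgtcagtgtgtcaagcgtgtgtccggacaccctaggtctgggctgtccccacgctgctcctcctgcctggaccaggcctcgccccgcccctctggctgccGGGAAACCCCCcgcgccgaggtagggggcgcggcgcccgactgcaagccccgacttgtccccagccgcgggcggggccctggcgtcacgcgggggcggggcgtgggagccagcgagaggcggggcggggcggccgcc
Sesn1 (chr10:41887189-41887438, plus strand): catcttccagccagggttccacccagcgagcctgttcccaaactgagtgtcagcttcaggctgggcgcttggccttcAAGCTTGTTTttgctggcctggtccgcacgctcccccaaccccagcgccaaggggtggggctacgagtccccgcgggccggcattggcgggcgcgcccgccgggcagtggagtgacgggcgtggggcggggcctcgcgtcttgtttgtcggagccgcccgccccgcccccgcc
Cdkn1a (chr17:29090729-29090978, plus strand): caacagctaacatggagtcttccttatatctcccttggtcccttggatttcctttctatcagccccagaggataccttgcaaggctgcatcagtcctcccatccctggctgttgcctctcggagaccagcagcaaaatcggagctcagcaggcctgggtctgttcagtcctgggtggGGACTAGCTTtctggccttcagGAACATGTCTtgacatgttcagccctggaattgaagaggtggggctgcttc
Mdm2 (chr10:117710759-117711008, minus strand): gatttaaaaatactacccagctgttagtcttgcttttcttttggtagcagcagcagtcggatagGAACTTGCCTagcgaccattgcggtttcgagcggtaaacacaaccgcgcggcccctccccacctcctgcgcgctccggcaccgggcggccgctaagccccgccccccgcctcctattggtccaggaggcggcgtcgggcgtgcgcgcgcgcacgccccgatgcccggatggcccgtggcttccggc
Ccng1 (chr11:40755287-40755536, minus strand): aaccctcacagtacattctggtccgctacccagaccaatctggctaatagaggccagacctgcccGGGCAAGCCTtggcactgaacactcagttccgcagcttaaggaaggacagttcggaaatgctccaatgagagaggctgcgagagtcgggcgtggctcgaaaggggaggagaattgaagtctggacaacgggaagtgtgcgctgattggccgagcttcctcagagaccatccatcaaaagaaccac

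Further genes of the same pathways, outside the 40, passed only with the block, with which 6.89% of all genes rose and 1.83% fell. Of 16 other death receptor and necroptosis genes 2 rose, the second TNF receptor Tnfrsf1b (0.76 ± 0.23, adjusted p = 0.218, 0.0303 with the block) and the NF-kB feedback inhibitor Tnfaip3 (0.37 ± 0.35, 0.603, 0.0361 with the block), with 8 higher and 8 lower. Of 14 other caspase and mitochondrial death genes 1 rose, Birc5 (0.50 ± 0.27, 0.375, 0.0130 with the block), an inhibitor of apoptosis family gene of dividing cells. Of 9 other BCL2 family genes above background 1 rose, the mitophagy receptor gene Bnip3 (0.35 ± 0.13, 0.255, 0.0470 with the block). The further Bnip3 probes gave 0.67 and 0.56, but both were lower in pair 2. The call of Bnip3 was lost with the mean of all probes (adjusted p = 0.0785) and with scaling by the median (0.384). None of Tnfrsf1b, Tnfaip3, Birc5 and Bnip3 passed with the block after normexp (adjusted p from 0.534 to 0.732). Tnfrsf1b and Tnfaip3 were lost after quantile normalization (0.06845 and 0.0687) and in the authors' values (0.0699 and 0.0701). Without pair 2 Tnfrsf1b (0.154), Tnfaip3 (0.134) and Birc5 (0.1095) were lost. With no filter Tnfrsf1b, Tnfaip3 and Bnip3 were lost. Tnfaip3 was lost with scaling by the median (0.203) and, like Bnip3, without pair 3.

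Other p53 targets did not share a direction. Of 21 tested, 2 rose, 1 fell and 18 did not pass with the block, where 6.89% of all genes rose and 1.83% fell. Of the 21, 7 were higher and 14 lower, with a median of −0.07, where 55.4% of all genes were higher (median 0.04). Gadd45a, a growth arrest gene (0.39 ± 0.21, 0.368, 0.0464 with the block), and Sulf2, a heparan sulfate sulfatase (0.58 ± 0.14, 0.145, 0.0288 with the block), rose, and Plk3, a stress-responsive kinase (−0.36 ± 0.13, 0.258, 0.0266 with the block), fell. Of 11 genes that control p53, 1 rose, the checkpoint kinase gene Chek1 (0.35 ± 0.13, 0.249, 0.0460 with the block). In the integrated stress response list of 8, Atf3 rose (0.41 ± 0.17, 0.289, 0.0390 with the block) and Chac1 fell (−0.40 ± 0.19, 0.315, 0.0246 with the block). Gadd45a, Sulf2, Plk3, Chek1, Atf3 and Chac1 all lost their calls with the block after normexp (adjusted p from 0.0828 to 0.732). With no filter they were lost as well (from 0.0503 to 0.0915). Sulf2, Plk3 and Atf3 were also lost after quantile normalization (0.0866, 0.0534 and 0.0655) and in the authors' values. With scaling by the median Gadd45a (0.2415), Chek1 (0.328) and Atf3 (0.145) were lost. Without pair 2 all but Chek1 were lost. Plk3 was lost without any 1 pair (from 0.0696 to 0.0730).

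**Figure D4:**
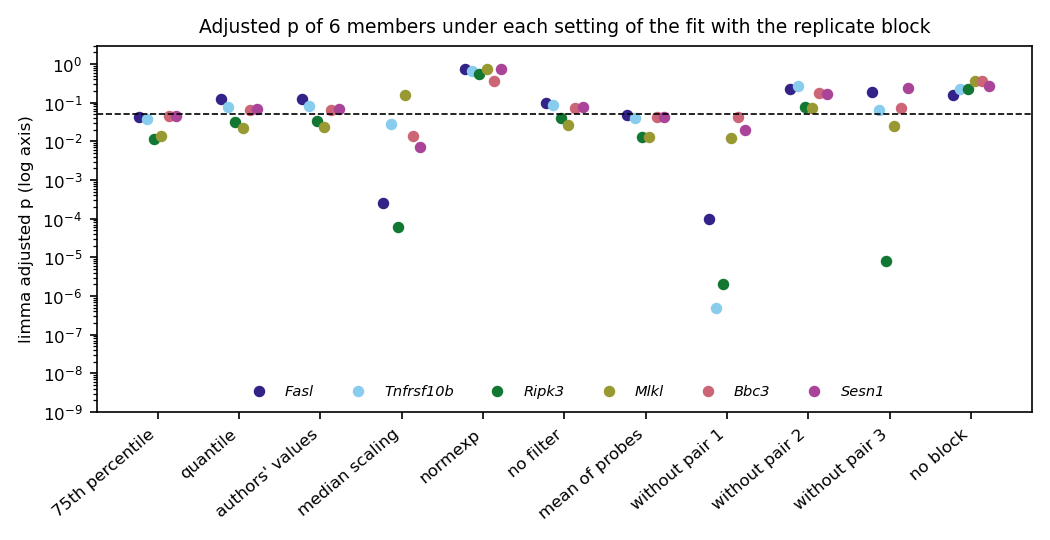
Limma adjusted p (log axis) of the 6 called genes under each setting of the fit with the replicate block; the dashed line is 0.05 and each colour is 1 gene. Ripk3 and Mlkl lie under the line in the authors' values and after quantile normalization, no gene does after normexp, without pair 2 or without the block.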

How the data were processed

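Per the file headers, the intensity of each spot was extracted by the authors with Agilent Feature Extraction (version 11.0.1.1, also in the submitters' processing notes), and its processed signal carries no scaling between arrays. Spot flags, other values of 0 or 1, are as deposited per the file headers. A table of the authors' own log2 values covers 31766 of 39429 probes and closely resembles quantile-normalized processed signal.

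Outlier spots were left out (between 0.381% and 0.618% per array), spots of a probe were averaged as log2 values, and the 75th percentile of each array was subtracted. A probe was kept (31063 were) if all arrays of either group had it well above background. Of all probes 27234 had a symbol through RefSeq accessions and 12195 kept their own name, which gave 25788 genes, 10 of them with a missing array and none of those a member. Groups were compared with limma 3.58.1 (lmFit, eBayes with a trend) in R 4.3.3, with data.table (version 1.17.8), Python 3.11.15 and matplotlib 3.10.9, and with Benjamini-Hochberg adjustment over all genes at 0.05. The fit was tested on simulated data.

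The members, role groups and lists were chosen with earlier results of these data known. Levels on every array are given for members past the threshold in either fit and for the 3 members of each role group with the lowest unadjusted p. Of each other pathway list the members past the threshold with the block are named. The arrays with equal replicate number were taken as pairs because each of the 3 correlations of their deviations exceeded 0.1, against −0.34 to 0.0088 for unequal numbers. Deviations from a group mean cancel out over its 3 arrays, so positive values at equal numbers force the others to be negative on balance. The values for unequal numbers are therefore no separate evidence for the pairing. The labels do not state the pairing, and the planned fit has no block. Scan was taken from the scan times in the headers. Normexp correction (offset 50) used the median signal and median background of each spot in place of the mean signal. Promoter windows cover 250 bases before the start, from RefSeq, and the 50 bases after it were left out. They exist for 35 of the 40 members and not in the table used here for Bik, Pmaip1, Tnfrsf10b, Tradd and Trp53inp1. The number of arrays limits the precision.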

Additional observations from a re-analysis of the deposited data

How the results depend on the processing

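Without the block, 0 of the 40 genes passed after normexp, quantile normalization, median scaling, no filter on dim probes, in the authors' values, with the mean of all probes or with scan as a block, where between 1 and 10 had an unadjusted p under 0.05. Leaving out 1 array gave 0 to 2 members (2 without exoNOD 1, Fasl and Tnfrsf10b) and 0 to 1272 of all genes: 0 without control 1, control 2 or exoNOD 2 (2556, 2424 and 3052 unadjusted), 76 without control 3, 2 without exoNOD 3 and 1272 without exoNOD 1. The 27 genes became 2249 with the replicate block, 162 with normexp (121 rose, 41 fell), 13 with median scaling, 0 with no filter (4638 unadjusted) and 0 with scan as a block (931 unadjusted). Quantile normalization gave 39 (22 rose, 17 fell) and the authors' values 31 (18 rose, 13 fell), against 26 and 1 as reported.

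With the replicate block the 6 members became 0 with normexp (5 unadjusted), 2 with quantile normalization, 2 in the authors' values, 2 with no filter, 0 without the block (4 unadjusted) and 6 with median scaling, where Fasl, Tnfrsf10b and Ripk3 rose, Bbc3, Sesn1 and Pmaip1 fell and Mlkl did not pass (adjusted p = 0.158). Leaving out 1 pair gave 0 to 6: 6 without pair 1, 0 without pair 2 (11 unadjusted) and 2 without pair 3 (Ripk3 and Mlkl). The 2249 genes became 190 with normexp, 1256 with quantile normalization (865 rose, 391 fell), 1231 in the authors' values (849 rose, 382 fell), 1088 with no filter, 4173 with median scaling (2099 rose, 2074 fell), 27 without the block, and 447 to 4171 without 1 pair. Added after seeing the data were the block with normexp, with no filter and with the mean of all probes.

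None of the 6 members called with the replicate block changed sign in another setting, the fit with scan as a block included. This did not hold for all genes outside the 40. Tnfaip3 rose with the replicate block (0.37) and had −0.07 with scan as a block. Among changes that did not pass, the sign differed for 10 of the 40 with normexp, 9 with median scaling, 11 with scan as a block, 2 with the mean of all probes and 1 each with quantile normalization and in the authors' values. The cause of the lost calls was not tested. The dim probes, Fasl and Bcl2l11 among them, lie near the lowest signal well above background.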

Other observations

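The 40 genes had a median standard error of 0.15 without and 0.092 with the replicate block, against 0.16 and 0.12 over all genes tested, and a median SD of 0.15 among the control arrays against 0.14 over all genes. Schwann cell markers summed to 1.94 to 2.29 on control and 2.19 to 2.37 on exoNOD arrays, in units of the 75th percentile.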
